A study of Mus musculus with 2 samples.

Results

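Genes that encode the transcription machinery were examined for promoter peaks of SRCAP, the catalytic subunit of a remodeller that exchanges nucleosomal H2A for the variant H2A.Z. They were the protein-coding genes of GENCODE vM21 (mouse build GRCm38) whose symbols start with Polr1, Polr2, Polr3, Gtf2 or Gtf3, or with Med or Taf followed by a number. The rule found 104 of 21951 protein-coding genes, made up of 5 Polr1, 13 Polr2, 10 Polr3, 16 Gtf2, 7 Gtf3, 23 Taf and 30 Med genes. A promoter peak was a peak whose midpoint lay from 1000 bp upstream to 500 bp downstream of any annotated transcription start site (TSS) of the gene. The rule used gene symbols alone and no measured value.

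The peaks come from CUT&RUN, in which an antibody-tethered nuclease releases the DNA around a bound protein, in SYAT mouse embryonic stem cells (mESCs). This CGR8 line expresses the receptor OsTir1 and makes SRCAP from both alleles as a fusion with YPet, a fluorescent protein, and AID, the degron that OsTir1 recognises in the presence of auxin. An anti-GFP antibody, which binds the YPet tag, was used in 1 library and an anti-SRCAP antibody in the other, each on 100000 cells fixed with 0.1% formaldehyde for 5 min. Control SYAT cells are kept in auxinole, an inhibitor of the degradation system. Its concentration is 200 nM in the labels of both libraries and 200 µM in the study's methods. The labels leave any other treatment of each library unstated, and the assay of the GFP library is named by its labels alone. Both libraries therefore share the tagged SRCAP, and untagged cells were not analysed here. With 1 library per antibody there is no replicate error, no p-value is given, and the 95% Wilson intervals cover counting error over genes only.

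The GFP list held 28718 peaks and the SRCAP list 28167, and the score of a peak had a minimum of 13 and a median of 47 in each. Neither list gives read counts. Depth is therefore unknown, and a gene without a listed peak cannot be called unbound. Peak lists do not measure expression, so the identity of the cells was not checked against marker genes. Peak density differed by chromosome in both lists. On chromosome 8 promoter peaks were listed for 49.2% (GFP) and 51.3% (SRCAP) of the protein-coding genes, and on the X chromosome for 13.6% and 9.49%.

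Transcription of nuclear genes is divided among RNA polymerase I, which makes ribosomal RNA, RNA polymerase II, which makes messenger RNA, and RNA polymerase III, which makes transfer RNA, 5S RNA and other small RNAs. The polymerases share several small subunits, and each is guided to its promoters by its own factors. At polymerase II promoters TFIID, built from TBP and TBP-associated factors (TAFs), nucleates the preinitiation complex with TFIIA, TFIIB, TFIIE, TFIIF and TFIIH, and Mediator relays signals from activators to it. H2A.Z flanks the start sites of active genes, where SRCAP-type remodellers deposit it.

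The DNA under the peaks is shown for the genes that led a family by score and whose GFP and SRCAP peaks overlapped, with the exception of Polr2b, whose overlap lay in an annotated exon. Each line gives the part of the overlap upstream of a TSS of that gene and outside all annotated exons, at most 200 bases, 5′ to 3′ on the strand of the gene, from RefSeq's GRCm38 sequence. Capitals mark exact matches on either strand to the letters of the CCAAT box, of the ZNF143 motif ACTACAAT, of the ETS motif CCGGAAGT, of the SP motif GGGGCGGG and of the E-box CACGTG. A match describes the sequence and does not show that a factor was bound.
Polr1a, chr6:71908813-71908997, plus strand, 185 bases: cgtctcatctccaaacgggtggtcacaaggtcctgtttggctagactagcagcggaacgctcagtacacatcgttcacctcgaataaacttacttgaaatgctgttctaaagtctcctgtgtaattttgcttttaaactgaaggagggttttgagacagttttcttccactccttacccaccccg
Polr1e, chr4:45018523-45018582, plus strand, 60 bases: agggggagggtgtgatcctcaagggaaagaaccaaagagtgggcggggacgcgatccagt
Polr3k, chr2:181864137-181864336, plus strand, 200 bases: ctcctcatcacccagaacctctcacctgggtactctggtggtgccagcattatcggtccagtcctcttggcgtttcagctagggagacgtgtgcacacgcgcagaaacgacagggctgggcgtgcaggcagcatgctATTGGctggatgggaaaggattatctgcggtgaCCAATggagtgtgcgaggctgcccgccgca
Gtf2h4, chr17:35673740-35673934, minus strand, 195 bases: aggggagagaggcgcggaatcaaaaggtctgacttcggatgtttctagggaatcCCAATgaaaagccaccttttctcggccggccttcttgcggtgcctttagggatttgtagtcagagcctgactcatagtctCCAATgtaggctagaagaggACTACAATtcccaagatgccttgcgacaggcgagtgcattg
Gtf3c6, chr10:40258799-40258998, minus strand, 200 bases: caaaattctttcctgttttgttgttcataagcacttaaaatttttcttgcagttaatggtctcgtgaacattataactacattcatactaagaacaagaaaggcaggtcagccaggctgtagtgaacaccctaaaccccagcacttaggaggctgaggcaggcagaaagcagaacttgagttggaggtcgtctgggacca
Taf1c, chr8:119605223-119605422, minus strand, 200 bases: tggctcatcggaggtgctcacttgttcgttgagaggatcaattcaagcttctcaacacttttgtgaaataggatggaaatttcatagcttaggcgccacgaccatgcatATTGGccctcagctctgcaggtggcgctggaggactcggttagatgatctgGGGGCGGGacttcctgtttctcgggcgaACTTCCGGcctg
Taf6l, chr19:8786418-8786591, minus strand, 174 bases: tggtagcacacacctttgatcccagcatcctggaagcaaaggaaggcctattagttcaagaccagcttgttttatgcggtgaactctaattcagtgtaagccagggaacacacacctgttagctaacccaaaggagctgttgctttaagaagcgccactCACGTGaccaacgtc
Med29, chr7:28392709-28392908, minus strand, 200 bases: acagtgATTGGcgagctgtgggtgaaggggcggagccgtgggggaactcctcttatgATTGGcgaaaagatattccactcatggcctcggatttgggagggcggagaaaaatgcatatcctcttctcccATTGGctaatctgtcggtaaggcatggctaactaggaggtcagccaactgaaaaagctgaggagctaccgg

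These stretches differed in base composition. Med29, a Mediator tail subunit gene, carried 3 CCAAT boxes in 200 bases, all of them on the opposite strand, and Polr3k and Gtf2h4 carried 2 each. The Gtf3c6 stretch, centred far upstream of its TSS, had a CpG ratio (observed over expected CpG dinucleotides) of 0.217, and 31.0% of its bases are repeat-masked in the reference. The Taf6l stretch had a ratio of 0.397 with 30.5% repeat-masked bases, and the other 6 had ratios from 0.6 to 0.729.

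SRCAP peaks were listed at the promoters of most of the machinery genes. With the GFP antibody 54 of the 104 genes had a promoter peak (51.9%, interval 42.4 to 61.3), against 35.0% of all protein-coding genes. With the SRCAP antibody 65 had one (62.5%, 52.9 to 71.2), against 35.6%. Promoter peaks were listed with both antibodies at 45 genes (43.3%, 34.2 to 52.9), against 27.0%, and with neither at 30 (28.8%, 21.0 to 38.2), against 56.4%. Of the 54 genes with a GFP peak 83.3% also had an SRCAP peak, and of the 65 with an SRCAP peak 69.2% also had a GFP peak, where all protein-coding genes gave 77.2% and 75.8%. The SRCAP antibody alone gave a peak at 20 genes (19.2%, 12.8 to 27.8), against 8.63%, and the GFP antibody alone at 9 (8.65%, 4.62 to 15.6), against 7.98%.

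Most of these promoters were rich in CpG dinucleotides, and CpG content moved with the shares over all genes. A CpG ratio of at least 0.6, from 250 bp before to 50 bp after the main TSS, was found at 93 of the 104 genes. Among those 93 the GFP share was 50.5% (40.6 to 60.5), where 52.0% of the 10291 protein-coding genes with such a ratio had a GFP peak. The SRCAP share was 62.4% (52.2 to 71.5), against 53.3%, and the share in both lists was 43.0% (33.4 to 53.2), against 41.0%. Beside genes with such a ratio, the GFP share of these 93 genes thus did not stand apart. The interval of their SRCAP share reached down to the background. The 11 machinery genes with a lower ratio had a peak at 7 in each list (63.6%, 35.4 to 84.8). All protein-coding genes gave 35.0% (GFP) and 35.6% (SRCAP). Those with a ratio under 0.6 were not taken separately.

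**Figure D1:**
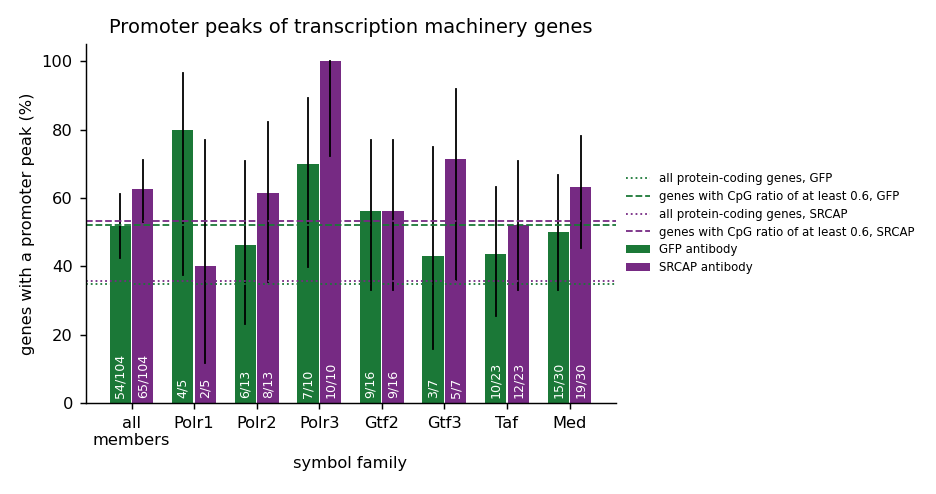
Percent of genes with a promoter peak (y axis) in each symbol family (x axis), for the GFP (green) and SRCAP (purple) antibodies, with counts in the bars and 95% Wilson intervals as lines; dotted lines give all protein-coding genes and dashed lines those with a CpG ratio of at least 0.6. All 10 Polr3 genes had an SRCAP peak, and each of the other intervals spans the dashed line of its antibody.

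The shares of the Polr symbol families differed from each other most in the SRCAP list, with overlapping intervals. These families are not the enzymes themselves, since some of their genes encode subunits shared between polymerases. Of the 7 genes for subunits particular to RNA polymerase II, 6 had an SRCAP promoter peak (85.7%, 48.7 to 97.4). All 10 Polr3 genes had an SRCAP promoter peak (100%, 72.2 to 100) and 7 had a GFP peak (70.0%, 39.7 to 89.2). No other family reached this share in the SRCAP list, whose family values otherwise ran from 40.0% (Polr1) to 71.4% (Gtf3). The interval of the Polr3 family overlapped those of the Polr1, Polr2, Gtf2, Gtf3 and Med families and lay above that of the Taf family (33.0 to 70.8). When a peak was given to the nearest protein-coding TSS alone, 7 of the 10 (70.0%) had an SRCAP peak, Polr3a, Polr3f and Polr3g being lost, and with peaks at or above the median score 5 did (50.0%).

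Polr3k, which encodes a small subunit involved in RNA cleavage and termination, had the strongest peaks of the family, with a score of 133 for GFP and 161 for SRCAP. Polr3a and Polr3b encode the large subunits that form the active centre. Polr3a had an SRCAP score of 34 and no GFP promoter peak, and Polr3b had a GFP score of 82 and an SRCAP score of 34. Polr3c, Polr3f and Polr3g belong to a subcomplex used in initiation, with Polr3gl encoding an alternative form of Polr3g. Polr3c had an SRCAP peak alone, with a score of 34. Polr3f scored 44 (GFP) and 86 (SRCAP), and Polr3g scored 42 and 31. Among the rest, Polr3e was in the SRCAP list alone with a score of 40, while Polr3d, whose product pairs with that of Polr3e, scored 42 and 47. At Polr3a, Polr3c, Polr3f and Polr3g the same peak also fell in the promoter window of a divergent neighbour (Rps24, Rnf115, Dzank1 and Mblac2), so it cannot be assigned to either gene of the pair.

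The 13 Polr2 genes comprise subunits particular to RNA polymerase II, subunits it shares and a regulator. Of the 7 genes for subunits particular to RNA polymerase II, 6 had promoter peaks in both lists (85.7%, 48.7 to 97.4) and Polr2g had one in neither. Of the 5 genes for subunits common to all nuclear polymerases (Polr2e, Polr2f, Polr2h, Polr2k and Polr2l), none had a GFP promoter peak (0%, upper bound 43.4%) and 2 had an SRCAP peak (40.0%, 11.8 to 76.9). The SRCAP intervals overlapped. The GFP intervals did not, but 5 of the 7 had a GFP peak with the window of 500 bp either side of the TSS (Polr2a was lost) or with peaks at or above the median score (Polr2i was lost), and their interval (35.9 to 91.8) then overlapped that of the shared subunits. The genes that were in the SRCAP list alone, Polr2f (score 45) and Polr2h (138), each have a divergent coding neighbour whose promoter window holds the same peak. Polr2m, whose product binds the polymerase as a regulator, had no promoter peak in either list.

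Polr2a encodes the largest subunit, which carries the heptad-repeat tail, and scored 74 (GFP) and 50 (SRCAP). Polr2b encodes the other large subunit of the active centre. Its SRCAP score of 297 was the highest of all 104 genes in that list, while its GFP score was 52. Both of its peaks also fell in the promoter window of the divergent gene Noa1. Polr2c and Polr2j encode an assembly pair that nucleates the enzyme, and scored 81 and 34 (Polr2c) and 52 and 56 (Polr2j). Polr2d, of the stalk, scored 52 and 104, whereas Polr2g, its partner in the stalk, had its nearest GFP and SRCAP peaks 3869 and 3893 bp from a TSS. Polr2i, which contributes to fidelity, scored 32 and 64.

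Of the 5 Polr1 genes, 4 had a GFP promoter peak (80.0%, 37.6 to 96.4) and 2 an SRCAP peak (40.0%, 11.8 to 76.9), the reverse of the order in most other families, although these intervals overlap. Polr1a, for the largest subunit of RNA polymerase I, had GFP peaks at 2 places with scores of 58 and 48 and an SRCAP peak with a score of 18. Polr1e, for a subunit found in this polymerase alone, scored 29 (GFP) and 74 (SRCAP). Polr1b, for the other large subunit, was in the GFP list alone with a score of 37, and 49.5% of the bases of that peak are repeat-masked. Polr1c and Polr1d encode a pair of subunits shared with RNA polymerase III. Polr1c had no promoter peak, and Polr1d had a GFP peak with a score of 22, which also lay in the window of the neighbour Lnx2.

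The Gtf2 symbols cover subunits of general factors of RNA polymerase II and the TFII-I family. In the Gtf2 family 9 of 16 genes had a promoter peak with each antibody (56.2%, 33.2 to 76.9), 6 with both and 4 with neither. Gtf2h4, of the TFIIH core, had the highest scores of the family, 106 (GFP) and 130 (SRCAP). Of the other core genes Gtf2h5 scored 47 in each list, and Gtf2h2 scored 33 and 34 at an internal position 368 and 449 bp downstream of a TSS. Gtf2h1 had an SRCAP peak alone (score 29, 529 bp upstream, shared with the neighbour Hps5), and Gtf2h3 had none.

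TFIIA, which steadies TBP on DNA, had no GFP promoter peak at any of its 3 genes (upper bound 56.1%). Gtf2a2 and the germ-cell form Gtf2a1l had SRCAP peaks with scores of 59 and 29, and Gtf2a1 had none. TFIIB, encoded by Gtf2b, had the reverse pattern, with a GFP peak of score 22 and no SRCAP peak. TFIIE recruits TFIIH, and its genes had GFP scores of 64 (Gtf2e1) and 35 (Gtf2e2, which had another GFP peak of score 29 at an internal TSS). Gtf2e1 had an SRCAP score of 29 and Gtf2e2 no SRCAP promoter peak. Of the TFIIF pair, which escorts the polymerase, Gtf2f1 had 1 GFP peak (score 40) and 2 SRCAP peaks (46 and 32), and Gtf2f2 had none.

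The TFII-I genes Gtf2i, Gtf2ird1 and Gtf2ird2 lie within 1 cluster on chromosome 5 and encode signal-responsive DNA-binding factors. Gtf2i had 2 GFP and 3 SRCAP promoter peaks, all weak, with scores of 27 and 26 and of 23, 18 and 14. Gtf2ird1 had a GFP peak alone, with a score of 47. Gtf2ird2 fell just outside the window: overlapping peaks of both lists lay in an intron, 594 bp (GFP, score 24) and 533 bp (SRCAP, score 100) from a TSS. When 1 bp of overlap with the window was enough, Gtf2ird2 was gained in both lists and no other gene was gained or lost.

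In the Gtf3 family 3 of 7 genes had a GFP peak (42.9%, 15.8 to 75.0) and 5 an SRCAP peak (71.4%, 35.9 to 91.8). TFIIIC binds the internal promoter of transfer RNA genes. Its subunit genes Gtf3c6 and Gtf3c2 were in both lists, with scores of 122 and 102 and of 55 and 66. At Gtf3c6 the strongest peaks of both lists lay at -844 and -730 bp from the TSS, and each antibody also gave a weaker peak at the TSS (scores 40 and 30). Gtf3c1 and Gtf3c5 had SRCAP peaks alone with scores of 29 and 23, and Gtf3c3 and Gtf3c4 had none. Gtf3a, whose product TFIIIA recognises 5S genes, scored 36 (GFP) and 58 (SRCAP).

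TAF genes had the lowest SRCAP share after Polr1, with 12 of 23 (52.2%, 33.0 to 70.8), and 10 had a GFP peak (43.5%, 25.6 to 63.2). Of the 16 genes for TFIID subunits and their paralogues, 6 had a GFP peak (37.5%, 18.5 to 61.4), 8 an SRCAP peak (50.0%, 28.0 to 72.0), 4 both and 6 neither. The genes with both were Taf6 (scores 84 and 53), Taf7 (48 and 40), Taf8 (101 and 108) and Taf11 (85 and 38). Taf6, Taf8 and Taf11 encode histone-fold proteins of TFIID. Taf1, which encodes the largest TFIID subunit and is X-linked, was in the GFP list alone with a score of 56, as was Taf9 (score 27, 881 bp upstream, in the window of Ak6 and Rad17 as well).

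The SRCAP list alone held Taf4b (113), Taf10 (97), Taf13 (54) and Taf12 (24). Taf4b, a paralogue of Taf4 known from the germ line, thus had the highest TAF score of that list after Taf6l, while Taf4, for a scaffold subunit, had no promoter peak. Taf4 had instead a pair of overlapping intronic peaks 4719 bp (GFP, score 51) and 4708 bp (SRCAP, score 88) from the nearest TSS. Taf2, Taf3 and Taf5 also had none, nor did the paralogues Taf7l and Taf9b, both X-linked.

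The SL1 factor brings TBP to ribosomal RNA promoters, and its TAF genes split evenly. Taf1a (scores 36 and 72) and Taf1c (119 and 110) were in both lists, and Taf1b and Taf1d in neither. Taf1b had the lowest CpG ratio of all 104 promoters (0.251), and its nearest peaks lay 73035 bp (GFP) and 152315 bp (SRCAP) away. Of the TAF-like genes of the SAGA coactivator, Taf6l scored 58 and 162 and Taf5l had no promoter peak. Taf15, an RNA-binding protein gene of the FET family that the symbol rule includes, scored 72 and 97.

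Mediator consists of a core of head, middle and tail modules and a detachable kinase module that restrains it. Of the 4 kinase module genes with Med symbols, Med12, Med12l, Med13 and Med13l, 1 had a GFP promoter peak (Med12, score 47) and none an SRCAP peak (upper bound 49.0%). Of the 26 other Mediator genes 14 had a GFP peak (53.8%, 35.5 to 71.2) and 19 an SRCAP peak (73.1%, 53.9 to 86.3), 13 in both lists and 6 in neither. The SRCAP intervals of these groups did not overlap, but this depended on the setting. With the nearest TSS alone 16 of the 26 had an SRCAP peak (42.5 to 77.6), and with peaks at or above the median score 13 did (32.1 to 67.9). Without chromosomes 8 and X the module held 3 genes and its upper bound was 56.1%, against 55.1 to 88.0 for the core, so the intervals overlapped in each case. Of the other genes of the module Cdk19 had peaks in both lists and Ccnc a GFP peak, as described with the partner genes. The kinase module promoters were rich in GC, at 69.0% (Med12), 76.7% (Med13), 78.0% (Med12l) and 84.7% (Med13l, the highest of the 104). Among all protein-coding genes with a CpG ratio of at least 0.6, an SRCAP peak was listed for 62.2% of those with 55 to 65% GC and for 31.4% of those with at least 75% GC. Among the 7 machinery genes in the latter range it was listed for 2. The part of GC content in the kinase module result was not tested.

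The Mediator head joins the polymerase. Of its 7 genes Med6, Med11 and Med20 were in both lists, Med8 (score 28) in the GFP list alone, Med17 (67) and Med18 (23) in the SRCAP list alone and Med22 in neither. Med11 scored 125 (GFP) and 193 (SRCAP), Med20 55 and 91, and Med6 78 and 47. Of the 9 middle module genes 4 had a GFP peak and 7 an SRCAP peak. Med19 had scores of 334 and 288, and Med26, whose product recruits elongation factors, of 32 and 107. Med1, for the subunit that binds nuclear receptors, scored 59 and 60, and Med31 41 and 85. Med7 (126), Med21 (65) and Med9 (26) were in the SRCAP list alone, and Med4 and Med10 had no promoter peak.

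The tail contacts activators, and 6 of its 9 genes had a GFP peak and 7 an SRCAP peak. Med29 had the highest GFP score of all 104 genes (431) and an SRCAP score of 291. Both midpoints lay upstream of Med29 and in the promoter window of the divergent gene Paf1, an elongation factor gene, and the SRCAP midpoint was nearer a TSS of Paf1. Under assignment to the nearest TSS, Med29 and Med19 lost their SRCAP promoter peaks. Med16 had 2 peaks in each list, with scores of 110 and 60 (GFP) and of 46 and 23 (SRCAP). Med30 scored 47 and 89, Med24 34 and 53, Med23 47 and 40, and Med25 40 and 32. Med15 had an SRCAP peak alone (42), and Med27 and Med28 had none. Med14, the X-linked gene of the subunit that holds the modules together, had its nearest peaks 61754 bp (GFP) and 279914 bp (SRCAP) away.

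**Figure D2:**
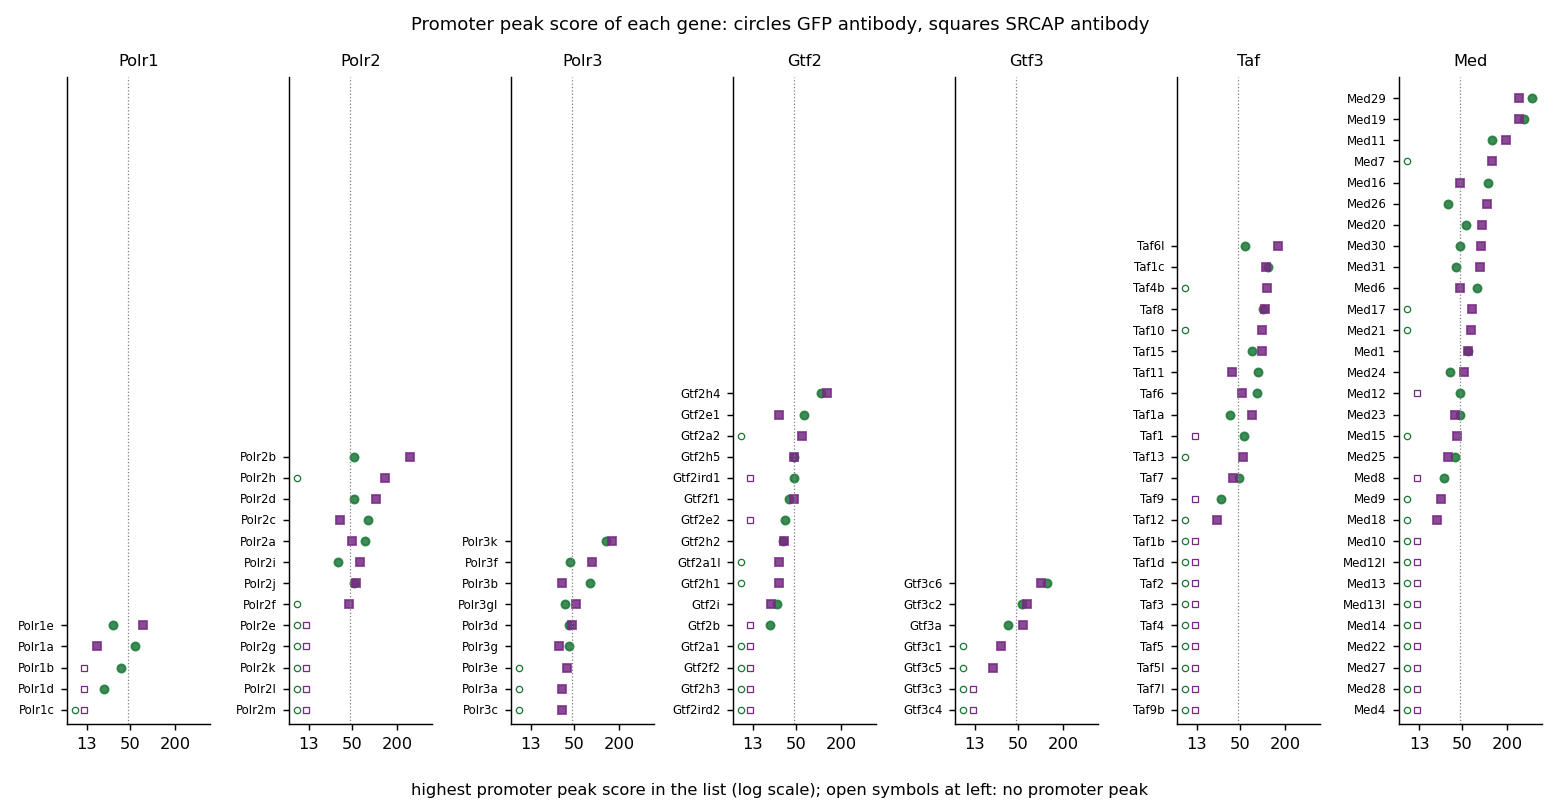
Highest promoter peak score (x axis, log scale) of the genes (y axis), by family and with 1 gene left out, in the GFP list (green circles) and the SRCAP list (purple squares); open symbols at the left edge stand for no promoter peak, and the dotted line is the list median of 47. Med29, Med19 and Med11 led in the Mediator family, and 9 Mediator and 9 TAF genes have open symbols in both lists.

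Subunits of the same machines whose symbols do not follow the rule gave another view of the complexes. Of 24 such genes, chosen by their known place in the complexes, 16 had a GFP promoter peak (66.7%, 46.7 to 82.0) and 12 an SRCAP peak (50.0%, 31.4 to 68.6), all 12 of them also in the GFP list. The order of the lists was thus the reverse of that in the 104 genes, with overlapping intervals. All protein-coding genes gave 35.0% (GFP) and 35.6% (SRCAP), and those with a CpG ratio of at least 0.6 gave 52.0% and 53.3%. Both partner intervals included the share of the CpG-rich genes, and the SRCAP interval also included that of all protein-coding genes. TBP itself scored 58 (GFP) and 102 (SRCAP), and its paralogue Tbpl1 had no promoter peak.

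The RNA polymerase I genes Cd3eap and Rrn3 scored 224 and 80 and 56 and 60, Ubtf scored 38 and 32, Znrd1 was in the GFP list alone (44) and Twistnb in neither. For RNA polymerase III, the subunit gene Crcp scored 64 and 35. Brf1, for the TFIIIB subunit used at transfer RNA genes, scored 168 and 203, while the TFIIIB genes Brf2 and Bdp1 had no promoter peak. SNAPc directs transcription of small nuclear RNA genes, and Snapc2, Snapc3, Snapc4 and Snapc5 were in both lists. Snapc1 was in the GFP list alone.

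Of the TFIIH genes outside the Gtf2h series, the helicase gene Ercc2 scored 61 and 60 and the helicase gene Ercc3 was in the GFP list alone with a score of 117. The TFIIH kinase genes Cdk7, Ccnh and Mnat1 had no promoter peak in either list. The kinase of the Mediator module showed no such uniformity: Cdk19 scored 296 and 185, its paralogue Cdk8 had no promoter peak, and the cyclin gene Ccnc had a GFP peak of score 24.

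Within a list, the scores of the machinery genes were close to those of other genes with promoter peaks. The median highest score was 47.5 (interval 42.0 to 58.0) over 54 genes for GFP and 54 (46.0 to 66.0) over 65 genes for SRCAP, where all protein-coding genes with a promoter peak had medians of 57 and 60, both inside the intervals. A score at or above the list median of 47 was reached by 32 of 54 and 40 of 65 genes, against 63.3% and 65.9% of all protein-coding genes with a promoter peak. A score of at least 100 was reached by 9 of the 54 genes for GFP (16.7%, 9.02 to 28.7) and 15 of the 65 for SRCAP (23.1%, 14.5 to 34.6), with the 20.8% and 22.8% of all protein-coding genes with a promoter peak inside these intervals. The 9 were Med29, Med19, Polr3k, Med11, Gtf3c6, Taf1c, Med16, Gtf2h4 and Taf8.

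Genes in both lists had higher median scores than those in 1 list, with overlapping intervals. The medians were 52 (44.0 to 72.0) for GFP and 60 (47.0 to 86.0) for SRCAP over the 45 shared genes, 35 (22.0 to 47.0) over the 9 genes with a GFP peak alone and 41 (29.0 to 65.0) over the 20 with an SRCAP peak alone. The highest scores of the last group were those of Polr2h (138), Med7 (126) and Taf4b (113), at percentiles 93.3, 91.8 and 89.4 of the SRCAP list. Across the 45 shared genes the scores of the lists were weakly related (Spearman's rho 0.331, across genes, which share the libraries and are not independent replicates). The SRCAP score was higher at 26 of the 45 and the GFP score at 18, counts that were not set beside those of all protein-coding genes.

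**Figure D3:**
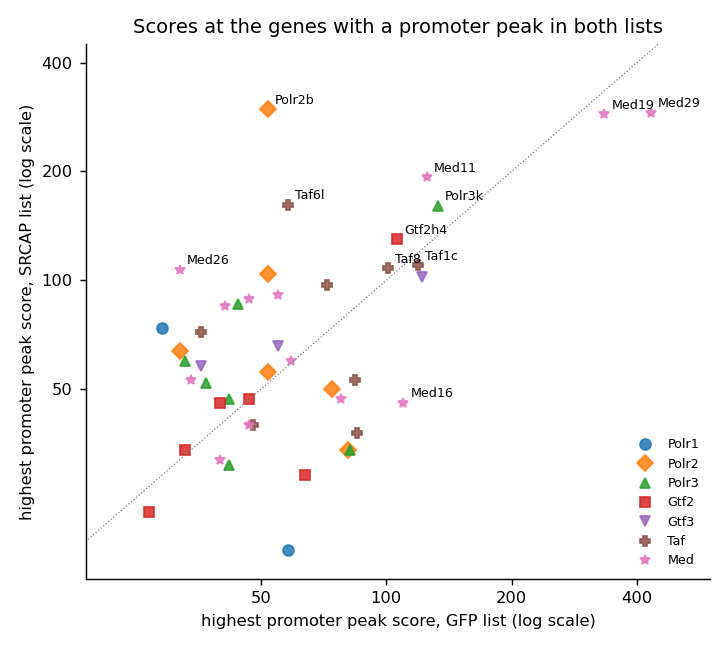
Highest promoter peak score in the GFP list (x axis, log scale) against that in the SRCAP list (y axis, log scale) for the 45 genes with promoter peaks in both, with symbols by family; the dotted line marks equal scores, and the scales of the lists need not be the same. Med29 and Med19 sit at the upper right, and Polr2b (52 and 297) lies farthest above the line.

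The antibodies marked the same places where both gave a peak. At 43 of the 45 shared genes (95.6%, 85.2 to 98.8) a GFP promoter peak overlapped an SRCAP peak, against 94.8% of all protein-coding genes in both lists. With a reciprocal overlap of 50% required, this fell to 73.3%, against 75.2%. The exceptions were Polr2c and Polr3gl. At Polr2c the GFP peak (chr8:94857194-94857379) ended just before the SRCAP peak began (chr8:94857388-94857780). At Polr3gl the GFP peak had its midpoint 78 bp downstream of a TSS and the SRCAP peak 131 bp upstream of one.

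Peaks lay close to the TSS and mostly upstream of it. The promoter window reaches 1000 bp upstream and 500 bp downstream, so by design it admits more upstream than downstream positions. The genes had 61 GFP and 71 SRCAP promoter peaks, of which 47 and 53 had their midpoints upstream of the nearest TSS and 39 and 56 within 250 bp of it. These counts have no share over all genes beside them, whereas the medians below do. The median position was -160 bp (interval -227 to -88) for the GFP antibody and -75 bp (-111 to -24) for the SRCAP antibody, where all protein-coding genes gave -128 and -92 bp. Median widths were 318 and 309 bp. By annotation 39 GFP and 44 SRCAP midpoints were upstream of the gene, 10 and 4 in introns, 11 and 15 in the noncoding part of exons and 1 and 8 in coding exons.

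**Figure D4:**
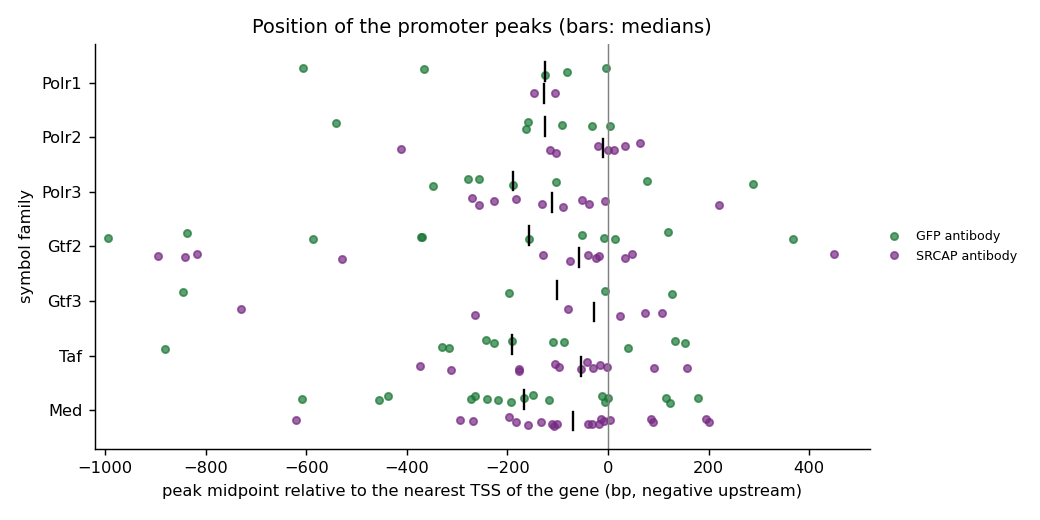
Midpoint of each promoter peak relative to the nearest TSS of its gene (x axis, bp, negative upstream), by symbol family (y axis), for the GFP (green) and SRCAP (purple) antibodies, with black bars for medians. In the 6 families other than Polr1 the SRCAP median lay nearer the TSS than the GFP median, and single peaks of the Gtf2 family reached a position of -995 bp.

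Several genes carried more than 1 promoter peak in a list, among them Gtf2e2, Gtf2i, Gtf3c6, Med16, Med19, Polr1a and Taf8 for GFP and Gtf2f1, Gtf2i, Gtf3c6, Med16 and Taf6 for SRCAP. The peak with the highest score is given for each gene above. At Med19 the added GFP peak (score 28) lay at an internal TSS, with 76.9% of its bases repeat-masked. At Taf8 it lay at -317 bp (score 45), and at Taf6 the added SRCAP peak had a score of 29. The median share of repeat-masked bases was 4.33% per GFP promoter peak and 0% per SRCAP promoter peak of these genes. Promoter peaks of all protein-coding genes gave 3.66% and 0%. Single peaks of the machinery genes reached 76.9% (GFP) and 46.9% (SRCAP).

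Divergent promoters were common among the machinery genes. An oppositely oriented protein-coding TSS lay within 1000 bp upstream at 29 of the 104 genes (27.9%, 20.2 to 37.2), against 11.0% of all protein-coding genes. Among all protein-coding genes a GFP peak was listed for 63.4% of those with such a neighbour and 31.5% of those without, and an SRCAP peak for 63.7% and 32.2%. Among the machinery genes the contrast was small. Of the 29 with a neighbour 55.2% (37.5 to 71.6) had a GFP and 65.5% (47.3 to 80.1) an SRCAP peak, and of the 75 without 50.7% (39.6 to 61.7) and 61.3% (50.0 to 71.5) had one. In all, 16 GFP and 22 SRCAP promoter peaks also fell in the window of another protein-coding gene. No share over all protein-coding genes stands beside these counts, which describe these peaks alone.

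The machinery genes on chromosomes 8 and X were few. On chromosome 8 (Gtf2e2, Med26, Polr2c, Taf1c and Taf5l) 4 of 5 had a GFP and 3 an SRCAP promoter peak, and on the X chromosome (Med12, Med14, Taf1, Taf7l and Taf9b) 2 of 5 had a GFP and none an SRCAP peak. Without both chromosomes the shares were 51.1% (GFP) and 66.0% (SRCAP), against 35.3% and 36.1% of all protein-coding genes.

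The CpG content of the machinery promoters was high whether or not a peak was listed. The median CpG ratio was 0.837 over the 104 promoters and 0.558 over all protein-coding promoters, and the median GC content was 58.8% and 56.0%. Among all protein-coding genes the median CpG ratio was 0.749 for those in both lists and 0.304 for those in neither. Among the machinery genes it was 0.812 (interval 0.737 to 0.890) for the 45 in both lists and 0.903 (0.779 to 1.02) for the 30 in neither, with overlapping intervals.

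**Figure D5:**
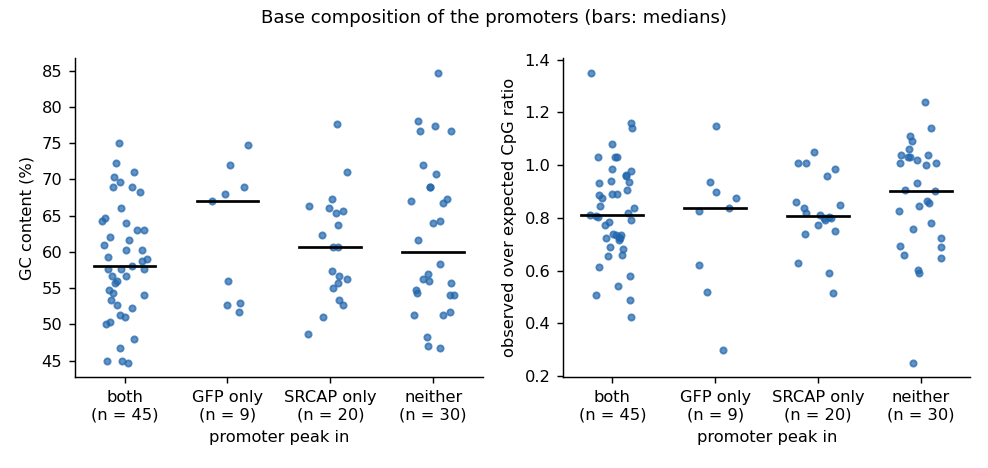
GC content (left, %) and observed over expected CpG ratio (right) of the promoter of each gene, from 250 bp before to 50 bp after the main TSS, grouped by the list that held a promoter peak, with black bars for medians. The groups overlap, with CpG medians of 0.812 for both lists and 0.903 for neither, and the highest GC content (84.7%, Med13l) lies in the group without a peak.

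Short consensus sequences were counted in the same 300 bp windows, as exact matches on both strands, and set beside 21938 protein-coding promoters and the 10291 of them with a CpG ratio of at least 0.6. ETS motifs (CCGGAAGT) occurred in 22 of the 104 (21.2%, 14.4 to 30.0), against 5.01% of all and 8.89% of the CpG-rich promoters, and included Taf1, Taf1a, Taf1b, Taf1c, Taf2, Taf7, Taf11, Taf12 and Taf13. The E-box CACGTG occurred in 18 (17.3%, 11.2 to 25.7), against 7.78% and 11.3%, the share of the CpG-rich promoters lying inside the interval. The YY1 motif ATGGCGGC occurred in 11 (10.6%, 6.01 to 18.0), against 2.76% and 5.14%. The NRF1 motif CGCATGCG and the CREB motif TGACGTCA occurred in 5 each (4.81%, 2.07 to 10.8), against 2.66% and 2.49% of all and 4.52% and 3.97% of the CpG-rich promoters, which all lie inside the interval. The SP motif GGGGCGGG (23.1%, 16.0 to 32.0) was near the share of all promoters (22.1%) and under that of the CpG-rich promoters (37.6%). The NFY motif AGCCAATC (6.73%, 3.3 to 13.2) had an interval that included both shares (4.68% and 5.8%). The TATA motif TATAAA (10.6%, 6.01 to 18.0) had one that included the share of all promoters (12.5%) and lay above that of the CpG-rich promoters (5.64%). ETS motifs were found at 9 of the 45 genes in both lists (20.0%, 10.9 to 33.8) and at 5 of the 30 in neither (16.7%, 7.34 to 33.6).

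Counts of other motifs in these groups were small. The ZNF143 motif ACTACAAT was found at 3 genes, Gtf2h4, Med11 and Med24, all of them among the 45 with peaks in both lists (2.29 to 17.9%). It was found at none of the 30 in neither (upper bound 11.4%), so the intervals overlapped. Among all promoters it was found at 0.871%, at 1.37% of those in both lists and at 0.59% of those in neither. The YY1 motif was found at 6 of the 30 genes without a peak (20.0%, 9.51 to 37.3; Med4, Polr2l, Taf3, Taf4, Taf5 and Taf7l) and at 3 of the 45 in both lists (6.67%), with overlapping intervals, whereas over all protein-coding genes it was found at 1.65% of those without a peak and 4.45% of those in both lists. The CCAAT box was searched after it had been seen in the sequences above, so its count is a description alone. It was found at 21 of the 45 genes in both lists (46.7%, 32.9 to 60.9) and at 4 of the 30 in neither (13.3%, 5.31 to 29.7; Med4, Med27, Med28 and Taf4). Without the 4 printed genes that hold it, it was found at 17 of 41 in both lists (41.5%, 27.8 to 56.6), an interval that overlaps that of the group in neither. From 1000 bp before to 500 bp after the TSS the shares were 86.7% and 80.0%. Over all protein-coding genes the shares in the 300 bp windows were 46.8% and 35.6%. The NFY motif contains the CCAAT box, so these counts overlap.

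Peaks were also listed outside the promoter windows. A peak with its midpoint elsewhere in the gene was listed by the GFP antibody for 22 genes (21.2%, 14.4 to 30.0) and by the SRCAP antibody for 21 (20.2%, 13.6 to 28.9). All protein-coding genes gave 25.3% and 25.0%, which lie inside these intervals. Of the machinery genes 14 were in both, a count with no share over all genes beside it. The kinase module gene Med13l, with no promoter peak, had the most, with 4 GFP peaks (scores 40 to 49) and 5 SRCAP peaks (18 to 67). Med12l had 2 in each list, with an overlapping pair of scores 47 and 74. Gtf2a1l had an overlapping intronic pair (scores 87 and 92), both stronger than its SRCAP promoter peak of 29.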

How the data were processed

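CUT&RUN peaks were taken from SYAT mESCs, with 1 library per antibody, grouped by the antibody in the sample titles. The authors deposited 1 peak list per library, called by MACS2 per the peak names, with a whole-number score per peak whose meaning was not stated. The submitters' processing notes name STAR, Picard and MACS2 and the builds mm10 and dm6 without giving their roles, and no peak calling is described for CUT&RUN itself. For ChIP-seq the study's methods describe MACS2 on paired fragments, with blacklisted regions excluded, and its reporting summary names an input for calling. Whether either holds for the CUT&RUN lists is not stated. Calling without a matched control could list regions of high read density as peaks. Read depth is unknown, so precision is given as 95% Wilson intervals for counting error over genes.

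Coordinates were kept on GRCm38. Of the 141767 GENCODE vM21 transcripts, those of protein-coding genes gave the start sites. A gene's highest promoter peak score stands for it in each list. Peaks overlapped when they shared at least 1 bp. GC content, CpG ratio and exact motifs were computed from 250 bp before to 50 bp after the main TSS, and repeat-masked bases were read from RefSeq's lower-case letters. The work used Python 3.11.15, numpy 2.4.6, pandas 2.3.3, scipy 1.17.1 and matplotlib 3.10.9. Overlaps were checked with bedtools 2.31.1. Promoter assignment was tested on simulated data.

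The members, complexes, partner genes and motifs were chosen with earlier results of these data known. The genes named were those in 1 list or neither, the 10 highest scores per list, the highest of each family, those with more than 1 promoter peak in a list and those whose peaks did not overlap. Other genes in both lists, and the 24 partners, were named for completeness of their complex. The values of 1 member are not reported here by name, though it is in the counts. No test was made, since each antibody had 1 library. Alternatives covered the score, the start sites, the window, the assignment rule, the overlap and the motif window.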

Additional observations from a re-analysis of the deposited data

How the results depend on the processing

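Shares of genes with promoter peaks, peak overlap, median scores and positions, base composition and motif shares were recomputed under other choices. Of 146 such values 128 stayed within the interval or spread of the reported one and 18 moved. The number that changed sign was 0, but only the median distances from the TSS could do so. Values of the partner genes, of genes with divergent neighbours and of peaks outside the promoter windows were not among them. No paired analysis was possible because there was 1 library per antibody, and no replicate could be left out. With peaks at or above the median score, shares of the 104 genes fell to 30.8% (GFP), 38.5% (SRCAP) and 20.2% (both) and rose to 51.0% (neither), against 22.2%, 23.5%, 16.0% and 70.3% of all protein-coding genes. By family they became 20.0% (Polr1, GFP), 20.0% and 50.0% (Polr3, GFP and SRCAP), 25.0% and 18.8% (Gtf2, GFP and SRCAP) and 43.3% (Med, SRCAP). Assignment to the nearest TSS gave 70.0% for Polr3 in the SRCAP list. A reciprocal overlap of 50% gave 73.3% coinciding promoters, and the CpG ratio over 500 bp either side of the TSS had a median of 0.745 at genes with a promoter peak. In windows of 1000 bp before to 500 bp after the TSS, motifs were found at 22.1% (YY1), 48.1% (SP), 39.4% (E-box), 48.1% (TATA) and 80.8% (CCAAT) of the genes, against 7.55%, 35.9%, 22.4%, 49.9% and 84.6% of all. The machinery genes were above all protein-coding genes in 24 of 24 combinations of share (GFP, SRCAP and both) and setting. Polr3 was the highest family in the SRCAP list in 8 of 8 settings. These counts include the main setting, and all settings use the same lists. The comparison of the CpG-rich machinery genes with all CpG-rich genes, beside which their GFP share did not stand apart, was not repeated under other settings. Leaving out chromosomes 8 and X, searching for CCAAT, and leaving out the printed genes that hold it, were chosen after seeing the data. The contrasts of the Mediator kinase module with the core and of shared with RNA polymerase II subunits kept separate intervals in some settings and lost them in others, as given with each. The lists hold no read counts, so what depth hides is not known. The causes of these shifts were not tested. Under the higher score fewer peaks were left by construction, so the shares of genes with a promoter peak could only fall or stay.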
